A study of Mus musculus with 6 samples.

Results

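Endoderm marker genes were read in sorted mesoderm of the E7.5 mouse embryo, where they serve as a sign of how pure the sort was. The set held 10 of the 24975 genes in the count table, taken by symbol: the secreted proteins Afp, Ttr, Apoa1, Apob and Rbp4, the uptake proteins Amn and Cubn, and the regulators Hnf4a, Sox17 and Foxa2. All 10 had reads in at least 1 library. Embryos carried Mesp1-Cre/+ with either R26-tdTomato/+ (control) or R26-Gli3R-IRES-Venus/+ (Gli3R), so that both groups held the Cre and differed in the R26 allele. Gli3R is a truncated Gli3 that represses Hedgehog target genes, here in cells that had expressed Mesp1-Cre, whose promoter is active in nascent mesoderm, and in their progeny. Littermates were pooled, and 1000 sorted cells went into each library, with 1 control and 1 Gli3R library from each of 3 litters. Per the file headers, control cells were sorted by tdTomato and Gli3R cells by Venus, so an effect of Gli3R and an effect of the reporter or its gate cannot be told apart.

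The visceral endoderm is the extraembryonic epithelium around the early embryo. It makes serum proteins much as the fetal liver does later, and takes up maternal nutrients through the cubilin and amnionless receptor pair. The definitive endoderm arises from the epiblast through the primitive streak, is marked by Sox17 and Foxa2, and joins and displaces part of the visceral layer during gastrulation. None of these genes is a defining gene of mesoderm, although Sox17 is also known from endothelium and Foxa2 from the node, the notochord and the anterior streak.

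The libraries held between 5481190 and 12635151 counts, so that 1 count stood for 0.0775 to 0.185 CPM (counts scaled to library size with TMM factors). Control replicate 1, the shallowest, stood apart on the first principal component at -39.8 against -2.25 to 19.2 for the others. Gli3 ranged from 25.7 to 34.3 CPM among controls and from 38.9 to 50.8 CPM with Gli3R, and counts do not separate its transgene from the endogenous gene (quasi-likelihood test of edgeR, Benjamini-Hochberg (BH) adjusted p = 0.312). The mesoderm label was checked on 17 mesoderm genes, among them Mesp1, Pdgfra, Kdr and Hand1. All 17 passed the filter on low counts, and they summed to 736 to 903 CPM among controls and 819 to 1005 CPM with Gli3R. Vim, Bmp4 and Hand1 weighed most, at means of 251, 164 and 156 CPM. In the edgeR test 0 of the 17 passed, and 7 had an unadjusted p under 0.05, against 6.86% of all genes. Of these 7, Bmp4, Hand1 and Kdr were higher with Gli3R, and Msgn1, Lefty2, Tbx6 and Foxf1 were lower. The median log2 fold change of the 17 was -0.29, against -0.01 over all genes tested, although the sum leaned higher. Bmp4 passed as higher with litter in the fit. The list is thus no constant reference, and Gata4 and Gata6 are also in a visceral endoderm list used below.

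The promoters of Afp, Apoa1 and Rbp4 are shown because these genes had reads in every library and were highest in the same litter. Capitals mark the forkhead core, TGTTTAC or TGTTTGC on either strand, the letters bound by Foxa factors such as the one Foxa2 encodes. Each run is the 250 bases before the RefSeq start site on GRCm38.p6, 5′ to 3′ on the gene's strand; that build is the sequence table's and not that of the counts.
Afp, chr5:90490464-90490713, plus strand: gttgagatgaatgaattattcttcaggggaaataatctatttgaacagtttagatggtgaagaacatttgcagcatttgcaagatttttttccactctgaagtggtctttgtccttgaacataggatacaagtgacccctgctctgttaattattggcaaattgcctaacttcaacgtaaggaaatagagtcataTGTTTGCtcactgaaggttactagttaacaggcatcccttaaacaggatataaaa
Apoa1, chr9:46228380-46228629, plus strand: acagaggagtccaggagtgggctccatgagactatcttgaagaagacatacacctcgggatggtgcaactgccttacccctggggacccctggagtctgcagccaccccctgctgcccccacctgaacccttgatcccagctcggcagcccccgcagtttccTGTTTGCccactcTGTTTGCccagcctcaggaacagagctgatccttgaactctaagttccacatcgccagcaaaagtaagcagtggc
Rbp4, first of 2 start sites, chr19:38125322-38125571, minus strand: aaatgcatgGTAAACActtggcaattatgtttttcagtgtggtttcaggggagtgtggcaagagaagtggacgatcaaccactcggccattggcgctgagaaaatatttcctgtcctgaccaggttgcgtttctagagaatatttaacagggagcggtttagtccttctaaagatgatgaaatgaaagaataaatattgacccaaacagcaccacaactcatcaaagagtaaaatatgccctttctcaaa
The core lay 55 to 49 bases before the start in Afp, 88 to 82 and 75 to 69 bases before it in Apoa1, and 241 to 235 bases before it, on the opposite strand, in Rbp4. Of the 12 start-site windows of the 8 members searched, 4 held it, 1 each for Afp, Apoa1, Apob and Rbp4, against 7.29% of all 32851 windows in the table. Counted by gene, 4 of the 8 members held it in at least 1 window, against 8.22% of all 27025 genes. The HNF4 motif CAAAGTCCA, the motif AGATAAG of the Gata factors and the Gli motif GACCACCCA were searched on both strands too, and none of them matched in these windows. They occurred in 0.384%, 2.74% and 0.225% of all promoters, so their absence from 12 windows says little. A match of letters is a description and no evidence of binding.

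The secreted proteins of the visceral endoderm were present at low levels and, except for Apob, were highest in both libraries of litter 2, whatever the genotype. Apoa1, which encodes the main protein of high-density lipoprotein, measured 1.48, 12.4 and 1.65 CPM in the controls of litters 1, 2 and 3, and 1.47, 23.0 and 7.96 CPM in their Gli3R partners. The groups overlapped, both litter 2 libraries lay above the rest, and within litters the Gli3R library was level with control in litter 1 and higher in litters 2 and 3. Its mean was 5.17 ± 6.25 CPM in control and 10.8 ± 11.1 CPM with Gli3R (SD, n = 3 each). Its log2 fold change, 0.91 ± 0.92 (SE), missed the threshold (quasi-likelihood test of edgeR, BH-adjusted p = 0.971). In bulk libraries, more cells of a type and more RNA per cell cannot be told apart.

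Rbp4 encodes the retinol carrier of serum. In the controls of litters 1, 2 and 3 it measured 5.00, 12.96 and 4.56 CPM, and with Gli3R 5.58, 14.3 and 5.82 CPM. Here too the litter 2 libraries were high in both groups, while the 2 genotypes lay close to each other in each litter. The means of 7.51 ± 4.73 and 8.57 ± 4.98 CPM (SD, n = 3 each) gave a log2 fold change of 0.13 ± 0.47 (quasi-likelihood test of edgeR, BH-adjusted p = 0.996).

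Ttr, the gene of the thyroid hormone carrier transthyretin, had 0, 34 and 5 reads in the control and 10, 32 and 16 in the Gli3R replicates. In CPM these were 0, 3.26 and 0.63 against 0.77, 4.09 and 2.45, higher with Gli3R in each of 3 litters but overlapping between the groups. Afp, which encodes alpha-fetoprotein, the main serum protein of the fetus, had 2, 16 and 1 reads in the control and 1, 15 and 9 in the Gli3R replicates. Their log2 fold changes were 0.62 ± 0.85 for Ttr and 0.38 ± 0.97 for Afp, and neither passed (quasi-likelihood test of edgeR, BH-adjusted p = 0.996 each). Apob, the gene of the structural protein of very-low-density and low-density lipoproteins, had 2, 3 and 0 reads in the control and 0, 7 and 2 in the Gli3R replicates. With 14 reads in all it was under the filter, and the ratio of summed levels, 1.57, had a 95% exact binomial interval of 0.471 to 5.95 (counting error only).

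**Figure D1:**
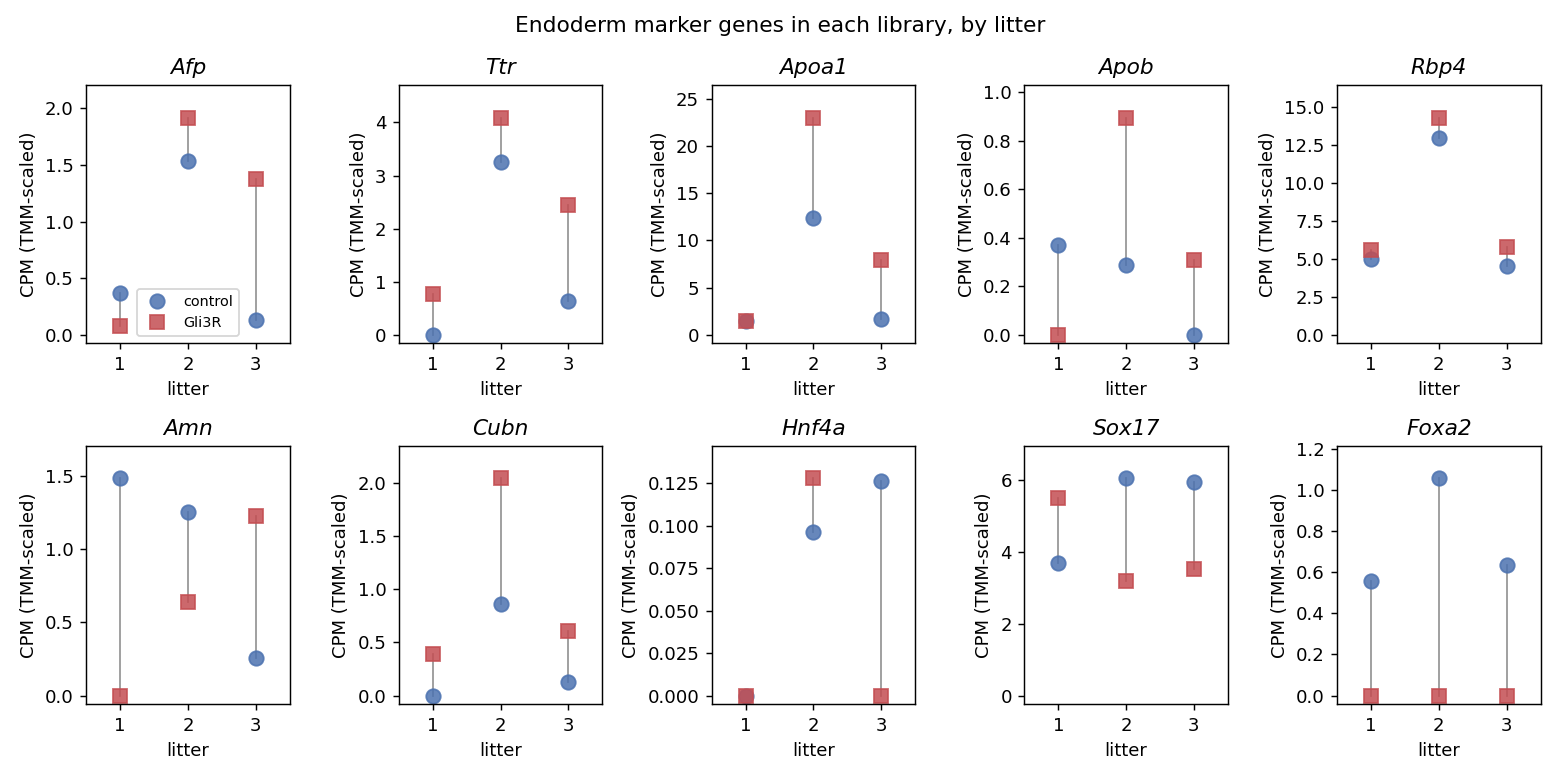
Level of each of the 10 genes in CPM (TMM-scaled, linear axes that differ between panels) by litter, with a circle for the control and a square for the Gli3R library and a line joining the pair. Afp, Ttr, Apoa1, Rbp4 and Cubn are highest in both libraries of litter 2, Sox17 is not, and Foxa2 is at 0 in each Gli3R library.

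The uptake genes, whose proteins form 1 receptor, had unlike profiles. Cubn, the gene of the large scavenger receptor cubilin, had 0, 9 and 1 reads in the control and 5, 16 and 4 in the Gli3R replicates. It followed the pattern of the secreted genes, with its highest CPM in litter 2, and was higher with Gli3R in each of 3 litters. Its summed level was 2.18 times as high with Gli3R, with an interval of 1.009 to 5.08 for counting error only. Without the low-count filter its log2 fold change was 1.29 ± 0.82 and did not pass (quasi-likelihood test of edgeR, BH-adjusted p = 0.899). Amn encodes amnionless, the membrane partner that cubilin needs to reach the cell surface. It had 8, 13 and 2 reads in the control and 0, 5 and 8 in the Gli3R replicates, was lower with Gli3R in litters 1 and 2 and higher in litter 3, and did not have its highest level in litter 2. Its log2 fold change without the filter was -0.84 ± 0.82 (quasi-likelihood test of edgeR, BH-adjusted p = 0.899).

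Summed over these 7 genes, the visceral endoderm level was 8.70, 32.5 and 7.34 CPM for the controls of litters 1, 2 and 3, and 8.29, 46.9 and 19.8 CPM for their Gli3R partners. The litter 2 libraries averaged 39.7 CPM against 11.0 CPM for the other 4, 3.61 times as high, while the mesoderm list differed 1.04-fold between the same libraries. The Gli3R library stood at 0.953, 1.44 and 2.69 times its control in litters 1, 2 and 3. The group means of 16.2 ± 14.2 and 24.99 ± 19.8 CPM (SD, n = 3 each) differed by less than the SD of either group. The log2 ratio of these means, 0.63, was -0.21 without Gli3R replicate 2 and 1.64 without control replicate 2, each of which keeps litter 2 in 1 group only. With both libraries of litter 1, 2 or 3 left out it was 0.74, 0.81 and 0.42. Control replicate 1, which stood apart in the whole transcriptome, was not among the high libraries. Set against the mesoderm list, the sum amounted to 0.813% to 3.997% in control and 1.012% to 4.79% in Gli3R libraries. Apoa1 and Rbp4 made up 69.8% to 85.05% of it. As a share of all counts without TMM, the lowest library, control replicate 3, held 58 reads or 7.38 CPM (95% exact binomial interval 5.604 to 9.54), and the highest, Gli3R replicate 2, held 367 reads or 46.9 CPM (42.2 to 52.0). The study has no library of visceral endoderm, so no share of cells can be given.

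**Figure D2:**
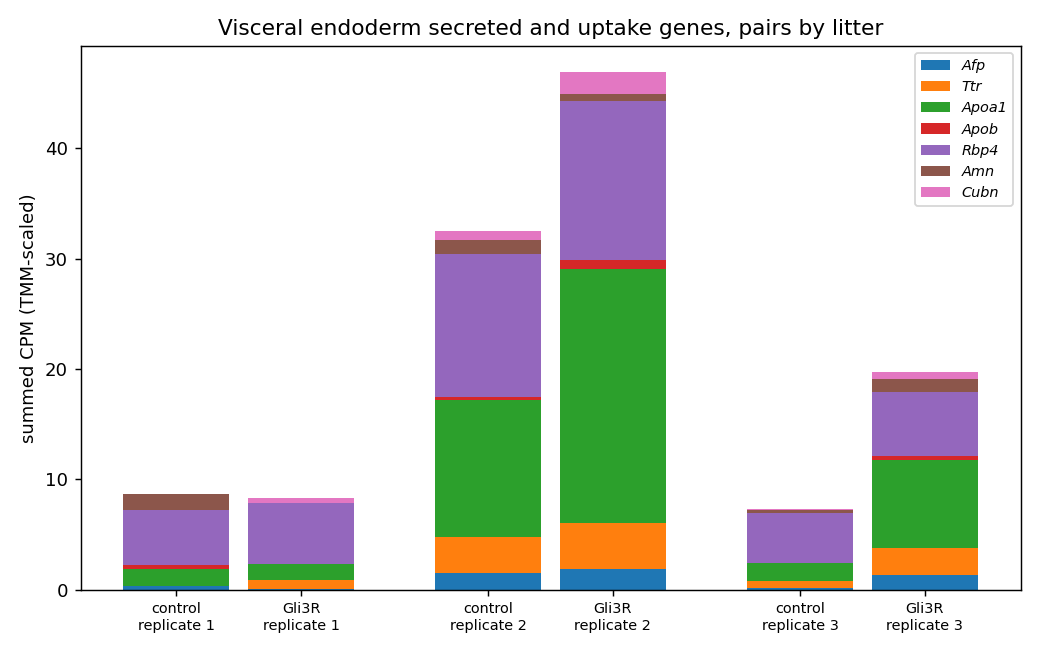
Summed CPM (TMM-scaled) of the 7 secreted and uptake genes in each library, stacked by gene, with the control and Gli3R libraries of a litter side by side. The litter 2 pair reaches 32.5 and 46.9 CPM, and Apoa1 and Rbp4 fill most of every bar.

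The difference between litters was tested by the litter term of a fit with litter and genotype, a test added after these values were seen. Unadjusted p-values were 9.28e-05 for Apoa1, 2.73e-04 for Rbp4, 0.00625 for Ttr and 0.0280 for Afp (edgeR quasi-likelihood test), and 8.68% of all tested genes had an unadjusted p under 0.05. After Benjamini-Hochberg adjustment over all 11913 genes none of them passed, at 0.132, 0.155, 0.338 and 0.527, and 0.00839% of all genes, a single one, did. For Sox17 the unadjusted p of the litter term in the same edgeR fit was 0.958. Both litter 2 libraries lay above the other 4 for Afp, Ttr, Apoa1 and Rbp4, as they did for 6.35% of all tested genes. Cubn, under the filter and so not part of that share, showed the same order. Afp and Ttr passed the filter through the 3 libraries in which they were high, control replicate 2 and Gli3R replicates 2 and 3, so the count of tested members carries no weight.

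With litter as a block, which compares the genotypes within litters, the errors of these genes shrank. Apoa1 then stood at a log2 fold change of 1.14 ± 0.34 in place of 0.91 ± 0.92, Ttr at 1.07 ± 0.53 and Rbp4 at 0.21 ± 0.18. The unadjusted p of Apoa1 was 0.0113, and 4.83% of all genes were higher at an unadjusted p under 0.05. None of these passed (quasi-likelihood test of edgeR with the block, BH-adjusted p = 0.334 for Apoa1, 0.657 for Ttr and 0.868 for Rbp4). Direction rested on single libraries: without Gli3R replicate 2, the log2 fold changes of Afp, Ttr, Apoa1 and Rbp4 were -0.38, -0.01, -0.35 and -0.44, and without control replicate 2 they were 2.08, 2.62, 2.74 and 0.84. No call was made in either case.

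**Figure D3:**
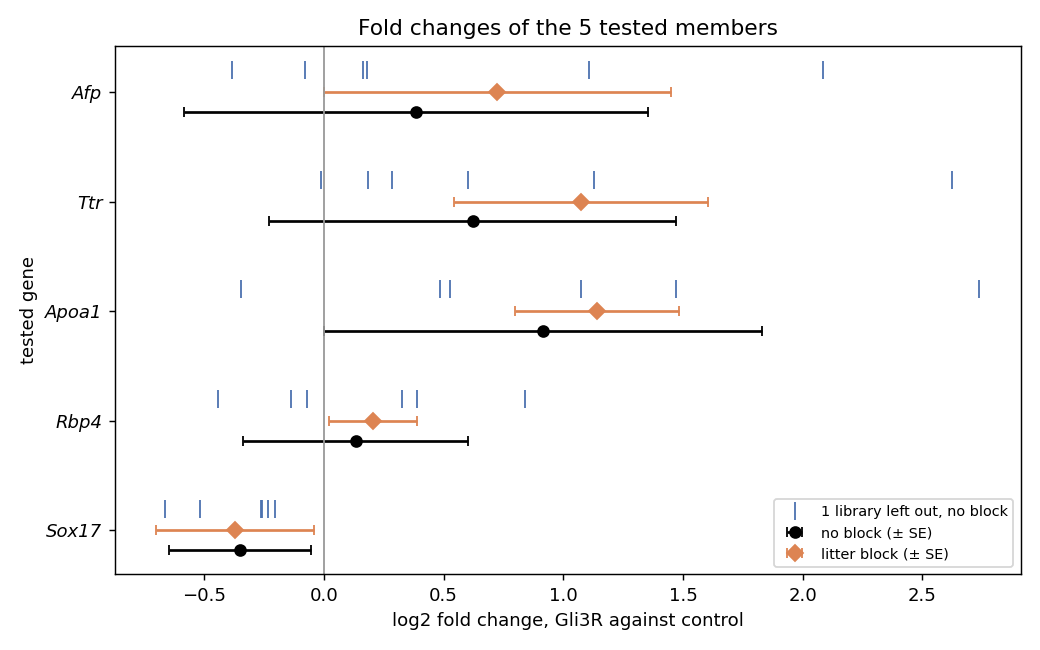
Log2 fold change, Gli3R against control, of the 5 tested genes, with circles for the fit without a block, diamonds for the fit with litter as a block (bars are SE) and ticks for the fits without 1 library. The ticks of Afp, Ttr, Apoa1 and Rbp4 lie on both sides of 0, those of Sox17 lie below it, and the bar of Apoa1 narrows from 0.92 to 0.34 with the block.

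Among the regulators, Sox17, a transcription factor gene needed to form the definitive endoderm, had a different profile. The controls of litters 1, 2 and 3 held 3.70, 6.05 and 5.95 CPM, and the Gli3R libraries 5.502, 3.20 and 3.52 CPM. The groups overlapped, with Gli3R above control in litter 1 and below it in litters 2 and 3. The means of 5.23 ± 1.33 and 4.07 ± 1.25 CPM (SD, n = 3 each) gave a log2 fold change of -0.35 ± 0.30 (quasi-likelihood test of edgeR, BH-adjusted p = 0.960). Without litter 1 it was -0.84 ± 0.30, with an adjusted p of 0.438 in the same edgeR test, and without litter 2 or litter 3 it was -0.07 and -0.17. The litter 2 libraries, high in the serum protein genes, held the highest Sox17 level among the controls and the lowest among the Gli3R libraries.

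Foxa2 encodes a forkhead pioneer factor of endoderm, node and notochord. It had 3, 11 and 5 reads in control replicates 1, 2 and 3 and 0 reads in each Gli3R library. In CPM the control libraries stood at 0.56, 1.06 and 0.63, and a count of 0 allows up to 0.232, 0.384 and 0.459 CPM in Gli3R replicates 1, 2 and 3. All 3 control libraries therefore lay above all 3 Gli3R libraries, a separation in the lower direction that 5.39% of all 18719 genes with reads showed. The exact two-sided permutation test over libraries gave p = 0.10, the smallest that 3 against 3 allows. With the 0 set at 3 reads over the group and the control reads taken as exact, the level came out 7.28-fold lower with Gli3R. With 1 library left out this figure was 3.83-fold to 8.04-fold. With counting error in both groups, the 95% exact binomial limit of the ratio was 5.36-fold lower. Set in the same way, with 3 reads for each Gli3R library, litters 1, 2 and 3 gave 2.39-fold, 2.75-fold and 1.38-fold. Those litter figures leave out the counting error of 3, 11 and 5 control reads, so they are no lower bounds. Of the 902 genes with 15 to 25 reads in all, a window chosen around Foxa2 after its values were seen, Foxa2 was the one gene (0.111%) with reads in every control and none in any Gli3R library.

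At 19 reads Foxa2 was under the filter. Without it, Foxa2 did not pass over 18719 genes (quasi-likelihood test of edgeR, BH-adjusted p = 0.0733, and 0.124 with the litter block), and DESeq2 gave an adjusted p of 0.171. Leaving out 1 library in this edgeR fit gave adjusted p-values from 0.0173 to 0.321. It passed without control replicate 1 (0.0173, with 16 control reads against 0) or control replicate 3 (0.0254), and not without the others. Foxa2 is also known from the node and notochord. The node and notochord list of 10 genes summed to 56.8, 21.1 and 11.4 CPM in control and to 12.63, 8.70 and 8.27 CPM in Gli3R replicates. T was the largest part of each sum, at 43.5, 16.3 and 7.97 CPM in control and 8.06, 5.12 and 3.52 CPM in Gli3R replicates. The sum follows T above all and is no measure of node cells. Foxj1 stood at 0 in all libraries and Shh at 1 read in all. Noto, a node transcription factor gene, had 11 reads, all in control replicate 1. Of 3 tested genes of this list 0 passed in edgeR (1 at an unadjusted p under 0.05, against 6.86% of all genes, and 0 with DESeq2, against 0.586%). T, the Brachyury gene, which is not particular to the node, fell with the litter block (log2 fold change -1.89 ± 0.24, quasi-likelihood test of edgeR, BH-adjusted p = 0.0373, and 0.402 without the block). The part of node and notochord cells in the Foxa2 counts was not tested.

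Hnf4a, the nuclear receptor gene that drives visceral endoderm differentiation, had 3 reads in all, 1 each in control replicates 2 and 3 and Gli3R replicate 2. A level of this size allows no comparison between the groups.

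Compared per kilobase of the longest annotated transcript, the mean levels over the 6 libraries were ordered as follows. Apoa1 (7.72 CPM per kilobase) and Rbp4 (6.93) came first, and their ranges over libraries, 1.42 to 22.2 and 3.92 to 12.3, overlapped. Ttr (1.58) and Sox17 (1.44) followed, at 0 to 3.45 and 0.986 to 1.87, so that each Rbp4 value lay above each Ttr value, while the range of Apoa1 overlapped those of Ttr and Sox17. Amn (0.475), Afp (0.437), Foxa2 (0.176), Cubn (0.0597), Apob (0.0222) and Hnf4a (0.0134) came next, with each neighbouring pair overlapping. Each Sox17 value lay above each Amn value, while the range of Ttr overlapped those of Amn and Afp. Lengths are from GENCODE M21, not the annotation behind the counts, and coverage along the long Cubn and Apob transcripts was not checked.

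Of the 10 genes, 5 were tested (Afp, Ttr, Apoa1, Rbp4 and Sox17) and 0 passed over all genes, where 0.134% of the genes tested did (quasi-likelihood test of edgeR, BH-adjusted p under 0.05). At an unadjusted p under 0.05 the count was 0 without the litter block, where 6.86% of all tested genes lay under it, and 1 with the block, where 8.73% did. With the block 0 passed after adjustment, where 0.227% of all genes did. DESeq2 called 0 members, and 0.586% of the 13998 genes to which it gave an adjusted p. The median log2 fold change of the 5 was 0.38, against -0.01 over all genes tested, with a median SE of 0.85 against 0.17. That median is the value of Afp, which like Ttr passed the filter through the libraries where it was high, so it carries no weight. Without the filter, Amn, Hnf4a and Foxa2 stood at -0.84, -0.90 and -5.73, and Cubn and Apob at 1.29 and 0.75. With the low-count filter kept, the count called was 0 as well without control replicate 1 and without each other library; Foxa2, under that filter, passed in fits of its own as given with its reads.

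Other genes of the visceral endoderm were read from a list of 35, of which 34 were in the table and 18 tested. None passed in edgeR (5 at an unadjusted p under 0.05, against 6.86% of all genes, and 1 with DESeq2, against 0.586%). Of the 5, Car4 and Lrp2 were higher with Gli3R (log2 fold changes 0.45 and 0.58). Cldn6, Spink1 and Cited1 were lower (-3.29, -2.25 and -1.12). With the litter block, Cited1, a transcriptional co-regulator gene also known from nascent mesoderm, fell (log2 fold change -1.12 ± 0.11, quasi-likelihood test of edgeR, BH-adjusted p = 0.0144; 0.171 without the block). Car4, Apoe, Ctsl and Dab2 were the tested members with the highest counts, at means of 868, 431, 233 and 63.0 CPM, and for none of them did both litter 2 libraries lie above the other 4. The lipoprotein genes Apoc2 and Apom, named after their values were seen, did follow the litters. Apoc2 stood at 0.19, 8.64 and 1.52 CPM in control and 2.63, 16.6 and 5.82 CPM in Gli3R replicates, and Apom at 0.37, 4.99 and 0.76 against 0.62, 5.24 and 0.92 CPM. The lipoprotein genes Apoa2, Apoa4, Apoc1 and Apoe of the same list did not have both litter 2 libraries on top. Trf, the transferrin gene, had 32 reads in all and was also highest in litter 2. Of the 18 tested genes, Apoc2 and Mttp had both litter 2 libraries above the other 4. The fibrinogen genes Fga and Fgb stayed below 0.3 CPM in every library, and Npc1l1 had no read.

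The definitive endoderm list held 22 genes, 16 of them tested, and 0 passed in edgeR (5 at an unadjusted p under 0.05, 4 with DESeq2, to be read against the same shares of all genes). Of the 5, Hhex and Krt19 were higher with Gli3R (log2 fold changes 0.88 and 0.90). Cdh1, Epcam and Emb were lower (-3.11, -1.12 and -0.27). With the block, the E-cadherin gene Cdh1 fell from 4.35 ± 2.57 to 0.45 ± 0.13 CPM (SD, n = 3 each; quasi-likelihood test of edgeR, BH-adjusted p = 0.0327, and 0.0869 without the block). Cdh1, Epcam and Otx2 are also in the list of epiblast and ectoderm genes, so they are counted in both. The 6 tested genes of that list had a median log2 fold change of -1.11 without the block, against 0.05 for the 16 here. Krt18, Krt8, Emb and Cer1 had the highest counts, at means of 692, 458, 434 and 64.7 CPM, Krt8 and Krt18 being keratin genes of simple epithelia. Cer1, a Nodal and BMP antagonist gene of anterior endoderm, measured 62.4 ± 7.55 CPM without and 66.9 ± 15.3 CPM with Gli3R and did not pass (quasi-likelihood test of edgeR, BH-adjusted p = 0.996). None of the 16 had both litter 2 libraries on top. Of 7 tested anterior visceral endoderm genes, including Cer1, Dkk1, Sfrp1 and Hhex, 0 passed in edgeR (1, Hhex, at an unadjusted p under 0.05, against 6.86% of all genes, and 1 with DESeq2, against 0.586%). Of 9 tested parietal endoderm genes, including Sparc, Lamb1, Col4a1 and Lamc1, 1 passed in edgeR, where 0.134% of all genes did (2 at an unadjusted p under 0.05, 1 with DESeq2, to be read against the same shares). That gene, Pth1r, fell from 24.9 ± 1.60 to 10.3 ± 0.68 CPM (quasi-likelihood test of edgeR, BH-adjusted p = 0.0114).

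In the lists of other cell types, other libraries were highest. Epiblast and ectoderm genes summed to 235, 169 and 138 CPM in control and 146, 132 and 125 CPM in Gli3R replicates, highest in control replicate 1. Primitive erythroid genes summed to 418, 490 and 221 CPM in control and 986, 255 and 243 CPM in Gli3R replicates, highest in Gli3R replicate 1. Extraembryonic ectoderm and trophoblast genes summed to 13.9 to 24.996 CPM among controls and 11.6 to 14.6 CPM with Gli3R, mostly Cdx2, with Elf5 and Tpbpa at 0 in all 6. Endothelial genes summed to 120 to 160 CPM among controls and 186 to 205 CPM with Gli3R. Of the 24 tested genes of these 4 lists 0 passed in edgeR (11 at an unadjusted p under 0.05, against 6.86% of all genes, and 6 with DESeq2, against 0.586%), and none had both litter 2 libraries on top.

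**Figure D4:**
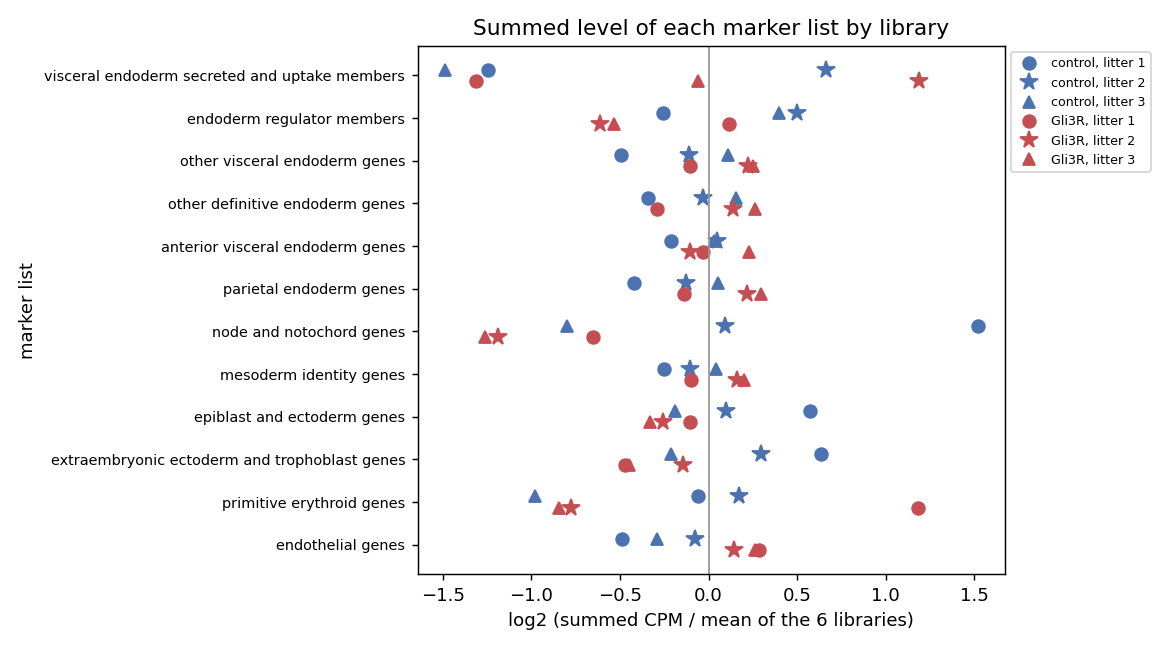
Summed CPM of each marker list in each library as log2 of its ratio to the mean of the 6 libraries, with color for genotype and marker shape for litter (stars are litter 2). The stars lie to the right of all other symbols in the row of the secreted and uptake genes.

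By likeness of profile, the genes nearest to the summed visceral endoderm level were Slc43a1, Adat3, Txnl4b, Mfap1a, Nipa2, Ube2w, Prkag1, Rabif, Cep250 and Bend4, at Pearson r of 0.953 to 0.991 over 6 libraries on log2(CPM + 1), as a description among 9330 genes. They varied 1.10-fold to 1.71-fold between their lowest and highest library, against 6.39-fold for the sum. Nearest to Apoa1 were Ube2w, Slc43a1 and Mfap1a, and to Rbp4 were Rdh11, Mtfr1l and Mrpl50. For the sum, the litter 2 pair lay highest, at 32.5 and 46.9 CPM. Gli3R replicate 3 came between, at 19.8 CPM, and the rest stood at 7.34 to 8.70 CPM. Many genes reach such values of r in so few libraries.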

How the data were processed

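RNA of 1000 sorted cells per library was sequenced in 3 control and 3 Gli3R libraries, grouped by their titles. The authors deposited raw counts per Entrez gene, named for featureCounts. The submitters' processing notes also name FastQC, TopHat2 2.0.14, Subread 1.4.6, edgeR and the build mm9, with no roles; for annotation, strand setting and multiply matching reads, the sources used here give nothing. As the labels' protocols state, cDNA came from the SMARTer Ultra Low kit and libraries from Nextera XT, so amplified copies count as reads, and intervals cover counting error only.

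Counts were fitted over all genes with edgeR 4.0.16 in R 4.3.3 (filterByExpr, minimum count 10, TMM, quasi-likelihood test, two-sided, Benjamini-Hochberg adjustment, threshold 0.05). The filter left 11913 genes. Simulated counts with 200 genes changed 4-fold gave 98.5% recovery over 11754 genes, with 14 false calls. The changed genes were drawn from those with more counts than Afp or Ttr, and no litter effect was simulated. This recovery therefore does not speak for the members. DESeq2 1.42.0 was an alternative, with litter as a block, other scalings, other filters and each library left out. Replicate numbers mark shared litters in the labels. Within litters 1, 2 and 3, residuals about the group mean had correlations of 0.168, 0.187 and 0.0755, against -0.269 to 0.162 across litters. Libraries differed by 3.90 to 13.9 chi-square units per gene, well above sampling noise. The litters are separate pools of animals.

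The members and lists were chosen with earlier results of these data known. Named are all 10 members, up to 4 tested genes with the highest mean CPM and all genes that passed in each list of endoderm or node genes, and the genes nearest in profile. Cited1, Cdh1, T and Bmp4 were named since they passed with the block. Apoc2, Apom, Apoa2, Apoa4, Apoc1, Trf, Mttp, Fga, Fgb, Npc1l1, Noto, Shh, Foxj1, Cdx2, Elf5, Tpbpa and the example genes of the mesoderm list were named after their values were seen. So were the genes given for their direction at an unadjusted p under 0.05. Other lists are given by sums. Promoters were searched for 8 members; motifs were chosen with the sequences at hand.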

Additional observations from a re-analysis of the deposited data

How the results depend on the processing

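The count of members called was 0 under every alternative run over all members, except that Foxa2, fitted with no low-count filter and 1 library left out, passed without control replicate 1 or 3 (adjusted p = 0.0173 and 0.0254, edgeR). The count over all genes, 16, was 27 with the replicate block (litter), 108 without a low-count filter, 82 with DESeq2, and 0 to 18 when 1 library was left out; without both libraries of litter 1, 2 or 3, alternatives chosen after seeing the data, it was 27, 2 and 0. The count of other visceral and definitive endoderm genes called, 0, was 2 with the replicate block (Cited1 and Cdh1), 6 without a filter (those 2 with Cldn6, Hhex, Krt19 and Epcam), 5 with DESeq2 (the same without Cldn6) and 1 without litter 1 (Cited1). Fewer samples or another set of tested genes enter these fits; other causes were not tested. Leaving out 1 library gave log2 fold changes of -0.38 to 2.08 for Afp, -0.011 to 2.62 for Ttr, -0.35 to 2.74 for Apoa1, -0.44 to 0.84 for Rbp4 and -0.67 to -0.20 for Sox17. Sign changes came without Gli3R replicate 2 (Afp -0.38, Ttr -0.011, Apoa1 -0.35, Rbp4 -0.44), control replicate 3 (Afp -0.08, Rbp4 -0.14) or control replicate 1 (Rbp4 -0.07), and Afp stood at -0.30 without litter 3. Apoa1, Rbp4 and Sox17 kept their sign when both libraries of any litter were left out. Scaling by library size alone moved no CPM of a member by more than 2.13%. Depth limits Hnf4a, Apob, Amn, Cubn and Foxa2, at 3 to 36 reads in all.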
